A study of Drosophila melanogaster with 4 samples.

Results

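The mitochondrial ribosomal protein genes of Drosophila melanogaster were examined on 4 genome-wide expression arrays of male flies. Members were the genes whose single symbol in the array's platform annotation starts with mRpL or mRpS followed by a number, which gave 69 genes of the 11981 genes named by a single symbol. By name, 44 of these (mRpL) belong to the large and 25 (mRpS) to the small ribosomal subunit. Subunits are given by this letter throughout, which was not checked against the place of each protein in the ribosome. They were measured by 71 probe sets, and where a gene had more than 1, the one with the highest 4-array mean was taken. No other measured value entered the choice.

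All flies were wild-type Canton-S males, young adults of 1 to 2 days on standard medium. The groups were flies kept for 24 h in benzene vapour, flies kept for 24 h in toluene vapour, flies kept for 24 h in formaldehyde vapour, and control flies that were not exposed, with 1 array each. The sources used here give neither the vapour concentrations nor how many flies were pooled per array. With 1 array per group there was no replicate and no test. In each difference, exposure, RNA sample and hybridisation cannot be told apart.

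Mitochondria keep their own small genome, whose messages encode core subunits of the respiratory chain and ATP synthase and are translated inside the organelle. The ribosomes that do this are built from RNAs made in the mitochondrion and proteins encoded in the nucleus, made in the cytosol and imported. The proteins of both subunits are needed in all cells that respire, and in Drosophila a mutation of the small subunit gene tko (technical knockout) leaves flies that develop slowly and are sensitive to mechanical shock. In these males the question was how the transcripts of the set stood after each vapour.

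The set differed little between the arrays. The log2 ratios of the members, exposed over control, ran from -0.15 to 0.22 for benzene, from -0.11 to 0.26 for toluene and from -0.24 to 0.18 for formaldehyde. As folds, the lowest and highest were 0.902 and 1.16 for benzene, 0.928 and 1.20 for toluene, and 0.847 and 1.13 for formaldehyde. No member was 2-fold higher or lower in any of the 3 comparisons. Over all detected genes 0.430% (benzene), 0.283% (toluene) and 1.11% (formaldehyde) were past 2-fold, so few of 69 genes would be counted at that size at these shares.

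A smaller size was therefore counted as well, 0.25 log2 units or more up or down, which is 1.19-fold. Genes were called detected where the larger of both values was no lower than its array's median, taken over probe sets that are not array controls (6.42 to 6.46). All 69 members reached it on all 4 arrays. For benzene 0 of 69 members were outside 0.25, against 16.0% of 8134 detected genes. For toluene 1 of 69 was outside, against 10.9% of 8140, and for formaldehyde 0 of 69, against 28.4% of 8165. The background hardly differed among genes of like level: of detected genes whose mean lay within the range of the members' means, 15.9%, 10.4% and 29.0% were outside. Centring each array on its median or quantile scaling put 1 member outside for benzene, and quantile scaling put 2 outside for formaldehyde.

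**Figure D1:**
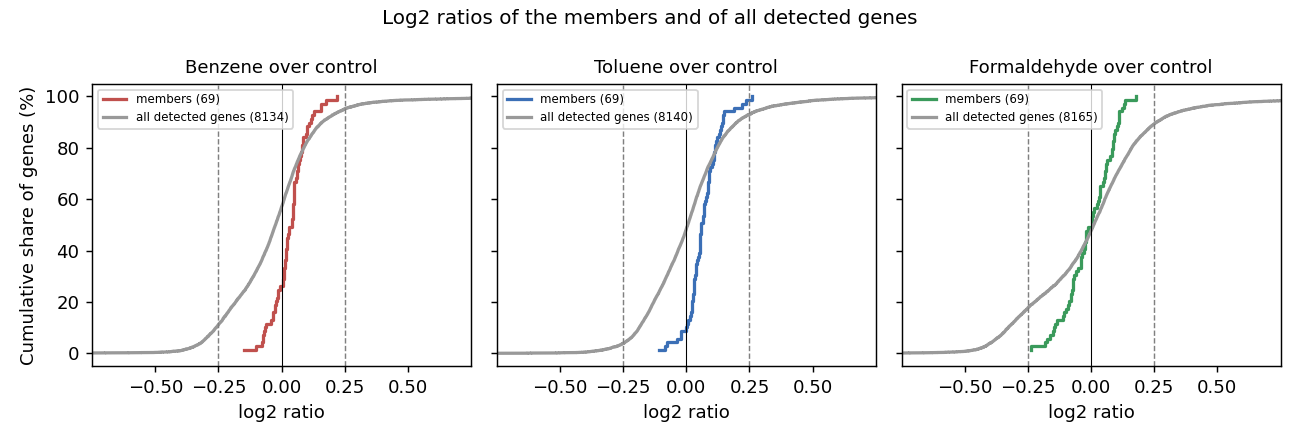
Cumulative share of genes (%) against the log2 ratio, exposed over control, for the 69 members (coloured) and all detected genes (grey), 1 panel per exposure, with dashed lines at 0.25 log2 units on either side of 0. The members' curves are steeper than those of all detected genes, and they lie within the dashed lines except for 1 gene with toluene.

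The same held for the spread over all 4 arrays together. The difference between a member's highest and lowest value had a median of 0.12 log2 units (0.04 to 0.27 over the 69). For all 8250 genes detected on any array the median was 0.21, and the middle 50% lay between 0.13 and 0.32. Of the members, 39 had a range at or below the 25th percentile of all genes, 59 at or below the 50th and 69 at or below the 75th. Without the formaldehyde array the medians were 0.09 for the members and 0.15 for all detected genes. The SD of the ratios across the 69 members with benzene was 0.07, with toluene 0.07 and with formaldehyde 0.10, where all detected genes had 0.22, 0.19 and 0.31. These SDs are across genes, which are not replicates.

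The members gave clear signals in males of this age. Their probe set values ran from 6.76 to 11.06 on the benzene array (median 8.61), from 6.88 to 11.14 on the toluene array (median 8.62), from 6.77 to 11.12 on the formaldehyde array (median 8.51) and from 6.80 to 11.02 on the control array (median 8.54). The lowest was mRpL11 and the highest mRpS5, but values of different probe sets do not rank the genes' transcripts, since each depends on its probes. The members' middle value by mean, 8.57, lay above that of 56.5% of detected genes.

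Although small, the toluene ratios were mostly on one side. With toluene 63 of 69 members were above the control, against 51.5% of all detected genes, and the median log2 ratio was 0.06 against 0.0052 for all detected genes. With each array centred 63 members were above 0, against 55.5% of all genes, and under quantile scaling 58, against 47.2%. Large subunit genes were above the control in 40 of 44 cases (median 0.07) and small subunit genes in 23 of 25 (median 0.05). No replicate gives the error against which a shift of this size could be set.

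The member furthest from the control with toluene was mRpL39, for a protein of the large subunit of mitochondria. It stood at 8.21 on the benzene, 8.41 on the toluene, 8.23 on the formaldehyde and 8.15 on the control array, a toluene ratio of 0.26. The toluene value was the highest of the 4, and this was the 1 member past 0.25; under quantile scaling it was not past it. mRpL22 encodes a large subunit protein whose bacterial counterpart lines the tunnel through which the new chain leaves. Its values were 8.56, 8.64 and 8.497 on the benzene, toluene and formaldehyde arrays and 8.40 on the control array (toluene ratio 0.24), so that all 3 exposed arrays were above the control. mRpL46 was at 7.78, 7.89 and 7.76 on those exposed arrays and 7.67 on the control array (0.22), the same order as mRpL22. mRpL35 (0.19) and mRpL41 (0.15), both of the large subunit, had their highest value on the toluene array too.

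The other 6 members were below the control with toluene. mRpL43 was at 7.90 (benzene), 7.86 (toluene), 7.72 (formaldehyde) and 7.96 (control), lower on every exposed array. mRpL36, for a short zinc-binding protein of the large subunit, was at 8.95, 8.94 and 8.92 on the exposed arrays, against 9.02 on the control array, and mRpL50 at 7.58, 7.59 and 7.50, against 7.61. These 3 were the members below the control on all 3 exposed arrays. mRpL21 (-0.08) and mRpS21 (-0.04) were also below the control with toluene but not with benzene. The sixth was mRpS23 (-0.02).

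**Figure D2:**
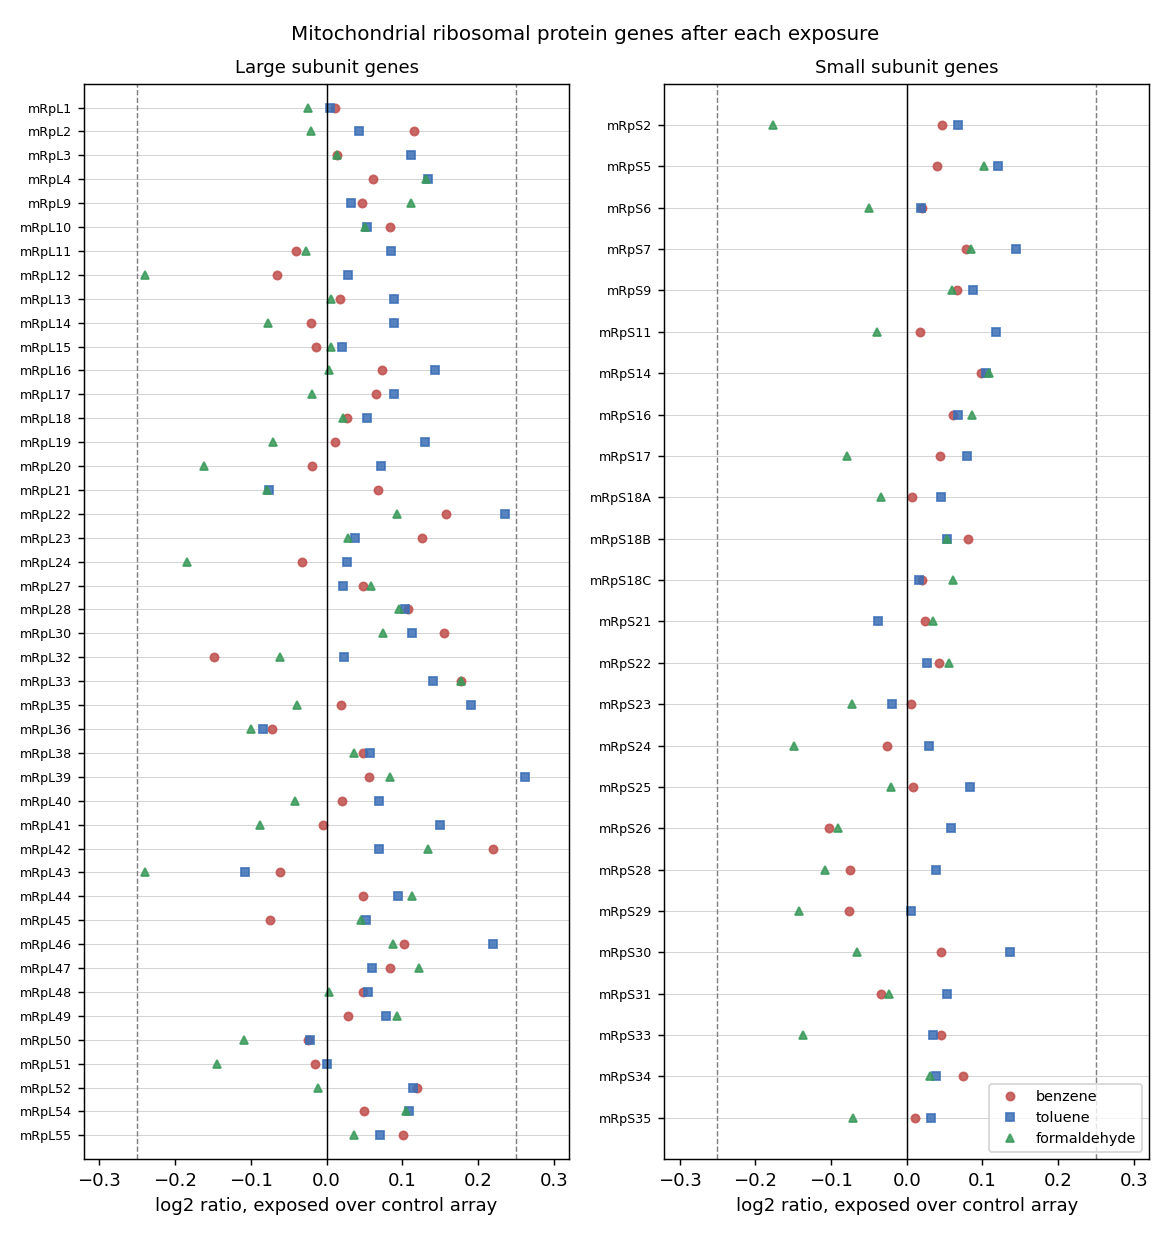
Log2 ratio of each of the 69 members, exposed over control, for benzene (circles), toluene (squares) and formaldehyde (triangles). Genes named for the large subunit (mRpL) are on the left and those named for the small subunit (mRpS) on the right. Dashed lines are at 0.25 log2 units on either side of 0. Toluene squares lie right of 0 in 63 of 69 rows, benzene circles in 51 and formaldehyde triangles in 35.

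With benzene 51 of 69 members were above the control, against 42.9% of all detected genes. With each array centred on its median 58 were, against 52.1%, and under quantile scaling 55, against 48.8%. The median log2 ratio was 0.04, against -0.02 for all detected genes. It was 0.07 with each array centred, as for toluene, and 0.06 under quantile scaling, where that for toluene was 0.05, so which of the 2 shifts was larger depended on the scaling. mRpL42, a large subunit gene, was furthest above, at 9.44 on the benzene, 9.29 on the toluene and 9.36 on the formaldehyde array, against 9.22 on the control array (benzene ratio 0.22). mRpL33, whose bacterial counterpart is a small zinc-ribbon protein beside the exit site for tRNA, was at 9.76, 9.72 and 9.76 on those arrays, against 9.58 on the control array (0.18). For both genes all 3 exposed arrays were above the control. mRpL22 (0.16), mRpL30 (0.15) and mRpL23 (0.13), the last for a protein at the tunnel's exit, came next.

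The lowest member with benzene was mRpL32, whose product is a zinc-binding large subunit protein that in yeast and mouse matures by cleavage by a mitochondrial protease. It had 7.89 on the benzene array, 8.06 on the toluene array, 7.98 on the formaldehyde array and 8.04 on the control array, a benzene ratio of -0.15. The benzene value was the lowest and the formaldehyde value the next. mRpS26 followed at 7.72 on the benzene and 7.83 on the control array (-0.10). mRpS29 encodes the small subunit's GTP-binding protein, known in mammals as death-associated protein DAP3, and had a ratio of -0.08. mRpL45, whose mammalian counterpart ties the ribosome's exit site to the inner membrane, was at -0.08, and mRpS28 at -0.075.

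The formaldehyde array spread the members most and shifted them least. Of 69 members 35 were above the control and 34 below, against 52.3% of all detected genes above. The median of 0.0037 turned to -0.02 under quantile scaling and to -0.01 when probe sets marked as shared or non-unique in their ID were left out. For the small subunit the median was -0.03 and 10 of 25 genes stood above the control, and for the large subunit it was 0.0057 and 25 of 44 did. Whether the subunits differ could not be tested.

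Of the members that were lower with formaldehyde, mRpL12 encodes the stalk protein of the large subunit, which in bacteria recruits the translation factors. It was at 8.68 on the benzene, 8.78 on the toluene, 8.51 on the formaldehyde and 8.75 on the control array, a formaldehyde ratio of -0.24. The formaldehyde value was the lowest, and the other 3 lay close together above it. mRpL43, given above, had the same ratio of -0.24. mRpS2, of the small subunit, was at 8.37, 8.39 and 8.14 on the exposed arrays, against 8.32 on the control array (-0.18), with the formaldehyde array again alone below. mRpL24 (-0.18), at the tunnel's exit in bacteria, and mRpL20 (-0.16), an early assembly protein in bacteria, had their lowest value there as well.

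Other members were higher with formaldehyde than on the control array. mRpL33 was furthest above (0.18), as it was second with benzene. mRpL42 (0.13), mRpL4 (0.13), mRpL47 (0.12) and mRpL44 (0.11) followed. mRpL44 carries a fold related to RNase III, and mRpL47 is the counterpart of a bacterial protein near the exit site. The second probe set of mRpL47 gave 0.02 in place of 0.12 for formaldehyde, -0.06 in place of 0.08 for benzene and 0.18 in place of 0.06 for toluene. The second probe set of mRpS11 gave -0.02, 0.13 and -0.02 for benzene, toluene and formaldehyde, where the one used gave 0.02, 0.12 and -0.04. For each gene the 2 probe sets were thus on opposite sides of the control with benzene.

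**Figure D3:**
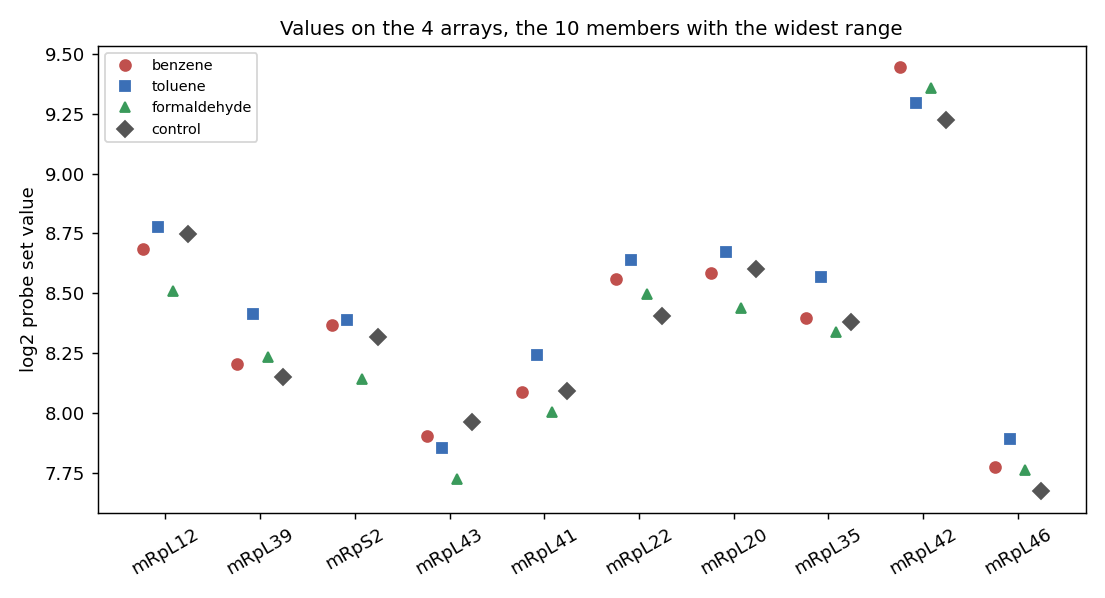
Log2 probe set values on the benzene, toluene, formaldehyde and control arrays for the 10 members with the widest range over the arrays (0.22 to 0.27 log2 units); values are to be compared within a gene. The toluene square is the highest of the 4 for mRpL12, mRpL39, mRpS2, mRpL41, mRpL22, mRpL20, mRpL35 and mRpL46, and the formaldehyde triangle is the lowest for mRpL12, mRpS2, mRpL43, mRpL41, mRpL20 and mRpL35.

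Ranking the 4 arrays within each gene gave the same picture. The highest value was on the toluene array for 40 of 69 members, against 22.3% of all detected genes, on the benzene array for 15 (12.6% of all), on the formaldehyde array for 11 (32.1% of all) and on the control array for 3 (32.9% of all). The lowest value was on the toluene array for 1 member (mRpS21; 12.4% of all genes), on the benzene array for 6 (26.2%), on the formaldehyde array for 30 (31.9%) and on the control array for 32 (29.4%). The place of the toluene array depended on scaling: after quantile scaling it was highest for 26 members and the benzene array for 33, against 18.9% and 20.1% of all genes. The control array was highest for 5 members then. In all, 32 members were above the control on all 3 exposed arrays, against 29.4% of all detected genes, and 3 were below on all 3, against 32.9%; these are the genes with the control array lowest or highest. The 3 comparisons share the control array, so that an offset of that array alone would move all 3 together.

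**Figure D4:**
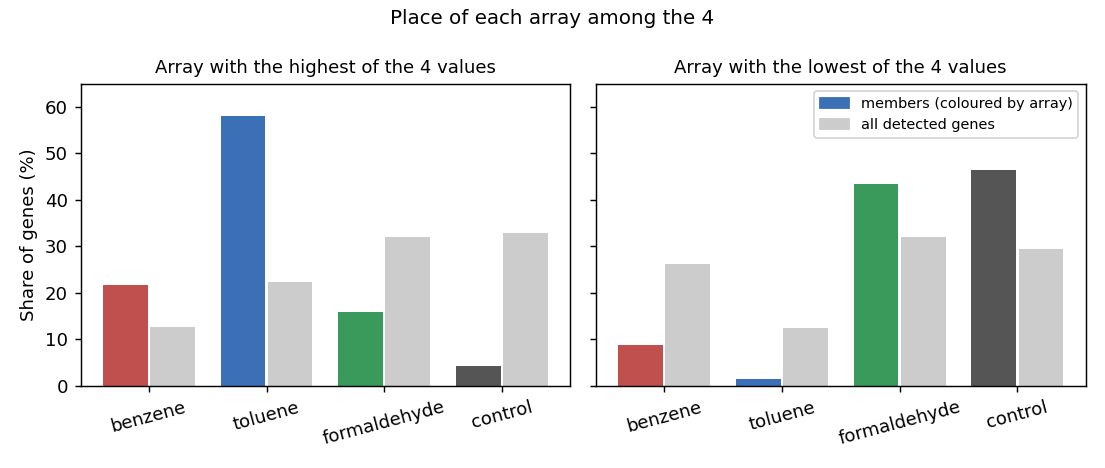
Share of genes (%) whose highest (left) or lowest (right) of the 4 values lies on the benzene, toluene, formaldehyde or control array, for the 69 members (coloured bars) and 8250 detected genes (grey bars). The members' highest value lies on the toluene array for 40 of 69 and on the control array for 3.

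The comparisons between exposed arrays do not use the control. Toluene differs from benzene by a methyl group on the ring. Toluene over benzene had 45 of 69 members above 0, against 65.6% of all detected genes, and a median of 0.03 that turned to -0.0078 under quantile scaling (31 members above 0, against 52.2% of all genes). No member was outside 0.25, against 7.51% of all genes. The share above 0 was thus near that of all genes. mRpL39 (0.205), mRpL32 (0.17) and mRpL35 (0.17) were highest, and mRpL42 (-0.15), mRpL21 (-0.14) and mRpL23 (-0.09) lowest. With 1 array each, no interval of these differences could be given, so the values do not show that the compounds act alike on the set.

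Formaldehyde over toluene had a median of -0.07, with 13 of 69 members above 0, against 44.4% of all detected genes. mRpL12 (-0.27), mRpS2 (-0.24) and mRpL41 (-0.24) were lowest, and mRpL9 (0.08), mRpS21 (0.07) and mRpL42 (0.07) highest. mRpL12 was the 1 member outside 0.25, against 13.2% of all genes. Formaldehyde over benzene had a median of -0.04 with 22 members above 0, against 54.7% of all genes. With each array centred the median was -0.06 with 10 above 0, against 46.1% of all genes, and under quantile scaling -0.08 with 9 above 0, against 43.5%. Under quantile scaling this median was lower than that of formaldehyde over toluene (-0.07). None was outside 0.25, against 11.9% of all genes. The lowest were mRpS2 (-0.22), mRpS33 (-0.18) and mRpL43 (-0.18), and the highest mRpL45 (0.12), mRpL32 (0.09) and mRpL4 (0.07).

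The members were also set out by number, chromosome arm and level. By number, 40 carry a number taken from bacterial ribosomal proteins (small subunit up to 21, large up to 36), and 29 a higher number given to mitochondrial proteins, a few of which, such as mRpS24 and mRpL47, are now paired with bacterial ones. The medians of the bacterial-numbered genes for benzene, toluene and formaldehyde were 0.04, 0.07 and 0.0057, and those of the higher-numbered 0.03, 0.06 and -0.02. The members lie on 5 chromosome arms, 11 on X, 12 on 2L, 10 on 2R, 17 on 3L and 19 on 3R in RefSeq's Release 6 annotation, and none is the direct neighbour of another among protein-coding genes. With toluene most members of every arm were above the control, 11 of 11 on X, 11 of 12 on 2L, 9 of 10 on 2R, 14 of 17 on 3L and 18 of 19 on 3R. With benzene the counts were 10, 10, 6, 10 and 15 in that order of arms. Over all detected genes 51.5% were above the control with toluene and 42.9% with benzene, and shares per arm were not computed. The 34 members with the higher mean values had a formaldehyde median of 0.04 (21 above the control), and the 35 with the lower ones -0.03 (14 above). Of all detected genes 52.3% were above the control with formaldehyde. This split was made after the values were seen, and no share of all genes was computed for either part.

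Drosophila has 3 genes named for the bacterial small subunit protein S18, where bacteria usually have a single one. mRpS18A stood at 9.01, 9.05 and 8.97 on the benzene, toluene and formaldehyde arrays, against 9.005 on the control array. mRpS18B was at 7.81, 7.79 and 7.79, against 7.73, and mRpS18C at 8.66, 8.66 and 8.70, against 8.64. The largest of their ratios over control was 0.08, of mRpS18B with benzene. Of small subunit genes that carry older names, tko (for S12) was at 9.20, 9.17 and 9.01, against 9.09 on the control array, and bonsai (for S15) at 8.61, 8.60 and 8.57, against 8.57. The probe set shared by mRpS10 and CG34316 had ratios of -0.02, -0.0081 and -0.03 for benzene, toluene and formaldehyde, and that shared by mRpL53 and CG33155 0.16, 0.12 and 0.14. mRpL34 and mRpL37 were not analysed here.

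Translation factors, tRNA charging genes and mitochondrial DNA transcription genes had list medians below 0 with benzene and formaldehyde. All detected genes had medians of -0.02 with benzene and 0.01 with formaldehyde. The median of the transcription genes with benzene (-0.02) was thus no lower than that of all detected genes. Regulators of nuclear genes for mitochondrial proteins, given at the end, had medians above 0 with benzene (0.03) and formaldehyde (0.13). Of 5 detected translation factors of the organelle, 4 were below the control with benzene (median -0.145), 3 with toluene (-0.04) and 4 with formaldehyde (-0.12). Of all detected genes 42.9%, 51.5% and 52.3% were above the control. mEFTs, the exchange factor of the elongation factor that delivers tRNA, had ratios of -0.22, -0.13 and -0.26, and mEFTu2, one of the genes for that elongation factor, -0.20, -0.17 and -0.13; mEFTu1, the other, had 0.0090, 0.10 and 0.06. Of 10 detected genes for charging mitochondrial tRNAs, TrpRS-m (-0.31, -0.14 and -0.325) and CysRS-m (-0.20, -0.15 and -0.29) were the lowest, and the list's medians were -0.08, -0.0042 and -0.02. Of 12 genes for transcribing mitochondrial DNA and maturing its RNAs, 0 were outside 0.25 in these 3 comparisons. Of all detected genes 16.0%, 10.9% and 28.4% were outside. These 12 genes had medians of -0.02, 0.02 and -0.07. Among them were scu, for a dehydrogenase that is also a subunit of mitochondrial RNase P (-0.21, 0.14 and -0.08), and mldr, for the nuclease subunit of that enzyme (-0.07, -0.08 and -0.16).

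Protein import genes bring the ribosomal proteins into the organelle. Their medians over 16 genes were -0.18 with benzene, -0.10 with toluene and -0.16 with formaldehyde. Above the control were 3, 4 and 2 of them, against 42.9%, 51.5% and 52.3% of all detected genes. Tim17b was among the import genes above the control, at 0.08, 0.05 and 0.06. The list holds copies such as tomboy40 beside genes such as Tom40 and was not split, and import itself was not measured. Outside 0.25 were 5, 0 and 7, all of them lower, where 11.2%, 3.92% and 17.7% of all detected genes were lower by as much. With benzene these were tomboy40, Tim17b1, tomboy20, ttm3 and ttm2, and with formaldehyde the same genes and Tim13 and Tim17b2. Those furthest down with formaldehyde were ttm2 (-0.26, -0.19 and -0.41) and Tim13 (-0.22, -0.15 and -0.34). tomboy40 (-0.32, -0.15 and -0.31), a male-germline relative of Tom40, was outside 0.25 for benzene and formaldehyde, while Tom40 itself, the import pore, was at 0.09, 0.05 and 0.08. Chaperone and protease genes had medians of -0.09, -0.03 and -0.11 over 11 genes. Hsp60B, a chaperonin gene needed in spermatogenesis, was at -0.31, -0.23 and -0.39 and Hsp60C at -0.28, -0.20 and -0.33, whereas Hsp60A, the chaperonin gene used throughout the body, was at -0.09, -0.05 and -0.11.

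Other large sets were counted in the same way. Of 67 detected nuclear genes of oxidative phosphorylation, 8 (benzene), 1 (toluene) and 11 (formaldehyde) were outside 0.25, all lower, and all of these carry names ending in L or in L and a number, which mark duplicate copies. As shares these counts are near or below the 11.2%, 3.92% and 17.7% of all detected genes that were lower by 0.25 or more. COX6AL2 (-0.35, -0.12 and -0.53) and COX6AL (-0.31, -0.14 and -0.39) were the furthest down with formaldehyde. The medians were 0.02, 0.02 and 0.03. Of 41 cytosolic ribosomal protein genes 2, 2 and 3 were outside, also lower, among them RpL10Aa (-0.29, -0.16 and -0.32), for benzene and formaldehyde, and RpS28a (-0.24, -0.19 and -0.31), for formaldehyde alone, both second copies, and the medians were -0.03, 0.02 and 0.01. No test sets these lists apart from the members.

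**Figure D5:**
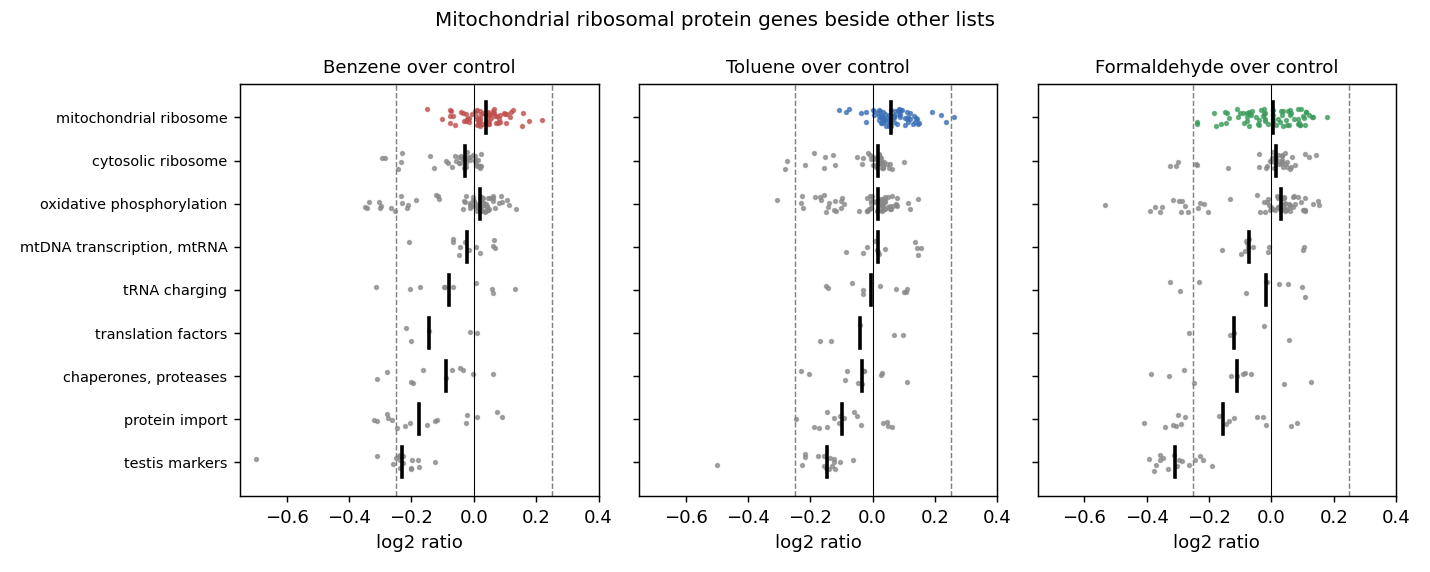
Log2 ratio, exposed over control, of each detected gene (dots) with the list median (black bar) for the mitochondrial ribosomal protein genes (coloured) and 8 other lists (grey), with dashed lines at 0.25 log2 units on either side of 0. The members lie close around 0, while testis markers and part of the import, chaperone and oxidative phosphorylation genes lie lower with benzene and formaldehyde. With toluene testis markers and import genes also lie lower, with medians of -0.15 and -0.10.

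The arrays differed in markers of single tissues, and the part of this in the members' values was not tested. All 16 detected testis markers of 20 were below the control on each exposed array. Of all detected genes 42.9%, 51.5% and 52.3% were above it for benzene, toluene and formaldehyde. The testis markers had medians of -0.23, -0.15 and -0.31 in that order. Furthest down with benzene and toluene was fzo (-0.70, -0.50 and -0.37), a mitochondrial fusion gene of spermatids. The summed level of all 20 testis markers, detected or not, was 15.85, 15.93 and 15.77 as log2, against 16.06 on the control array. Accessory gland markers (14 of 14 detected) had medians of -0.07, -0.11 and -0.19, and photoreceptor markers (8 of 8) of 0.27, 0.04 and 0.25. Fat body markers (5 of 5 detected) had medians of 0.13, 1.63 and 1.02, with 4, 5 and 4 of them above the control; fit was below it with benzene (-0.0040) and formaldehyde (-0.35). Muscle markers (7 of 7) had medians of 0.11, 0.02 and 0.10, and hemocyte markers (4 of 6) 0.16, 0.15 and 0.33, each list with members on both sides. Neuron markers (3 of 5) had medians of 0.09, -0.12 and 0.04. Of the yolk protein genes, made by females, 1 of 3 was detected. In these mixed tissues fewer cells of a type and less RNA per cell cannot be told apart. On the formaldehyde array the manufacturer's controls for actin and for 18S rRNA stood above the control array by medians of 0.76 and 0.50, and those for eIF-4a by -0.02. The controls for GAPDH stood above it by 0.13 with benzene and 0.15 with toluene. Those for 18S rRNA stood above it by 0.16 and 0.11, and both sets were above the members' medians on those arrays. With benzene and toluene the actin controls differed from it by -0.0017 and 0.008 and those for eIF-4a by 0.02 and 0.0061, less than the members' medians.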

How the data were processed

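The values were deposited on a log2 scale in a single table of 18952 probe sets, 183 of them array controls. RMA, MAS5 and Affymetrix Expression Console 1.1 are listed in the submitters' processing notes without roles, so the summary method and the scaling between arrays are not stated. Column medians were 6.42 to 6.46. Total RNA (300 ng) went into a 3' labelling kit, per the labels' protocols. Arrays give no depth; their number, 1 per group, limits the precision.

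Values were used as deposited. Groups came from the sample titles. Gene names came from the platform annotation, and all 69 members were found by identifier in the Release 6 table of RefSeq, used for names, chromosome arms and neighbours. Ratios are differences of log2 values; no p-value or SD between replicates exists. The counting was tested on simulated data. The members and the lists were chosen with earlier results of these data known. Named are the 5 highest and 5 lowest members per exposure against control, 3 and 3 per comparison between exposures, the mRpS18 paralogs, and 2 genes per other list with the largest ratios; others named were chosen after their values were seen, as mRpL11, mRpS5, mRpS23, mRpS24, tomboy40, Tom40, Hsp60A, mEFTu1, fzo and the genes with 2 or shared probe sets. Promoter motifs were not analysed here. Python 3.11.15, pandas 2.3.3 and numpy 2.4.6 were used.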

Additional observations from a re-analysis of the deposited data

How the results depend on the processing

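No paired analysis was possible because each group has 1 array and no test was made; for the same reason no replicate could be left out. Of the 8 alternatives, leaving out the formaldehyde array was chosen after seeing the data, as were the background of like level and the split by level. A median counted as moved at 0.05 log2 units, which none of the medians against control reached. The median against control turned for formaldehyde, to -0.0108 with plain probe sets alone and to -0.0230 under quantile scaling, and the toluene over benzene median turned to -0.0078 under quantile scaling. The cause was not tested.

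Members outside 0.25 numbered 1 each for benzene over control and for formaldehyde over benzene, both when each array was centred and under quantile scaling. Toluene over control gave 2 when centred, 0 under quantile scaling and 0 at 0.5 log2 units; formaldehyde over control gave 2 under quantile scaling; formaldehyde over toluene gave 2 when centred and 0 at 0.5 log2 units. Members above 0 for formaldehyde over benzene were 10 when centred and 9 under quantile scaling. The filter at the 75th percentile left 44 members for that comparison, of which 14 were above 0, where 22 of 69 were as reported. For toluene over benzene it left 45, of which 26 were above 0, where 45 of 69 were as reported. The toluene array was highest for 26 members and the control array for 5 under quantile scaling, and without the formaldehyde array the toluene array was lowest for 5. Of 267 recomputed ratios of named members 0 changed sign and 4 moved by 0.05 or more.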

Other observations

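Among detected regulators known in flies or mammals to act on nuclear genes for mitochondrial proteins, 5 of 5 were above the control with formaldehyde (median 0.13), against 52.3% of all detected genes, and 3 of 5 with benzene and with toluene. They were ewg, the fly counterpart of NRF-1 (0.11, 0.11 and 0.23 for benzene, toluene and formaldehyde), foxo (0.17, -0.0041 and 0.21), Dref (-0.12, -0.13 and 0.13), crc (-0.02, 0.04 and 0.03) and Ets97D (0.03, 0.15 and 0.02). None was outside 0.25 against the control, where 16.0%, 10.9% and 28.4% of all detected genes were. Above the control were 42.9% of all detected genes with benzene and 51.5% with toluene. mtSSB, for the single-strand binding protein of mitochondrial DNA, was at 0.17, 0.09 and 0.249, the 1 detected gene of 3 in the list for maintaining that DNA.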
